A study of Arabidopsis thaliana with 6 samples.

Results

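Beta-tubulin is one of the 2 proteins of the dimer from which microtubules are built, and Arabidopsis thaliana carries a family of beta-tubulin genes, called isotypes, that code for very similar proteins. The genes described here are those with a probe set that the platform annotation assigns to 1 beta-tubulin gene alone. There were 5 of them among 13286 genes with a probe set of their own: TUB1 (AT1G75780), TUB5 (AT1G20010), TUB6 (AT5G12250), TUB7 (AT2G29550) and TUB9 (AT4G20890). The other 4 of the 9 isotypes looked up, TUB2, TUB3, TUB4 and TUB8, were not analysed here. Each of the 5 genes had 1 probe set, and no filter on low values was applied. The members were chosen by gene identity and not by their values, though earlier results of these data were known.

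The samples were 3 of G2/M cells and 3 of root meristem, each hybridised to its own Affymetrix ATH1 array. The G2/M cells were sorted by fluorescence (FACS) out of roots carrying the reporter CYCB1;1-GFP, in which a mitotic cyclin is joined to a green fluorescent protein. The root meristems were cut whole from the root under a microscope and hold dividing cells of every tissue layer and cycle phase. All plants were of the accession Col-0, grown on agar with Murashige and Skoog salts. The labels give no plant age, no reporter for the meristem plants and no number of plants per sample. Sorting and dissection differ between the groups, so the selection of cells and the handling cannot be told apart.

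In plant cells microtubules pass through a series of arrays during the cycle. The interphase array under the plasma membrane guides the deposition of cellulose and is prominent in elongating cells. Around division it is replaced by the preprophase band, which marks the division plane, then by the spindle, and then by the phragmoplast, which builds the new cell wall. The dimer of alpha- and beta-tubulin is folded with help from a chaperonin and cofactors, and its assembly starts from complexes that contain gamma-tubulin.

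The measured isotypes split in the sorted G2/M cells. TUB7 was the one isotype that rose, by 1.08 on the log2 scale or 2.11-fold, and TUB5, TUB6 and TUB9 fell by 2.51, 1.28 and 0.76, or 5.68-, 2.43- and 1.70-fold. TUB1 was lower in each sorted sample, but by unequal amounts, and did not pass the test. A call is an adjusted p under 0.05 in a fit of limma (a linear model with moderated variances) to all 22746 probe sets. Benjamini-Hochberg adjustment was over all of them, and every adjusted p below comes from that fit unless another setting is named. That fit leaves the replicate number out, and with the number as a block TUB9 alone of the isotypes was called. All values are the authors' GCRMA levels on the log2 scale, and all differences are G2/M cells minus root meristem. Levels of different probe sets were not set against each other, since each binds its target with its own strength.

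Thus 1 of the 5 isotypes was called higher and 3 were called lower. Of all tested probe sets 11.5% were called, 4.44% higher and 7.06% lower. Among the 1282 probe sets whose mean over the 6 arrays lay within the range of the 5 isotypes (8.61 to 10.2), 24.7% were called, 7.96% higher and 16.8% lower. For all 5 isotypes the 3 sorted samples lay entirely on one side of the 3 meristems, which was also true of 30.7% of all probe sets and of 58.7% of those in that level range. With the replicate number as a block in the fit, 0 isotypes were called higher and 1, TUB9, lower, beside 1.03% of all probe sets called.

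**Figure D1:**
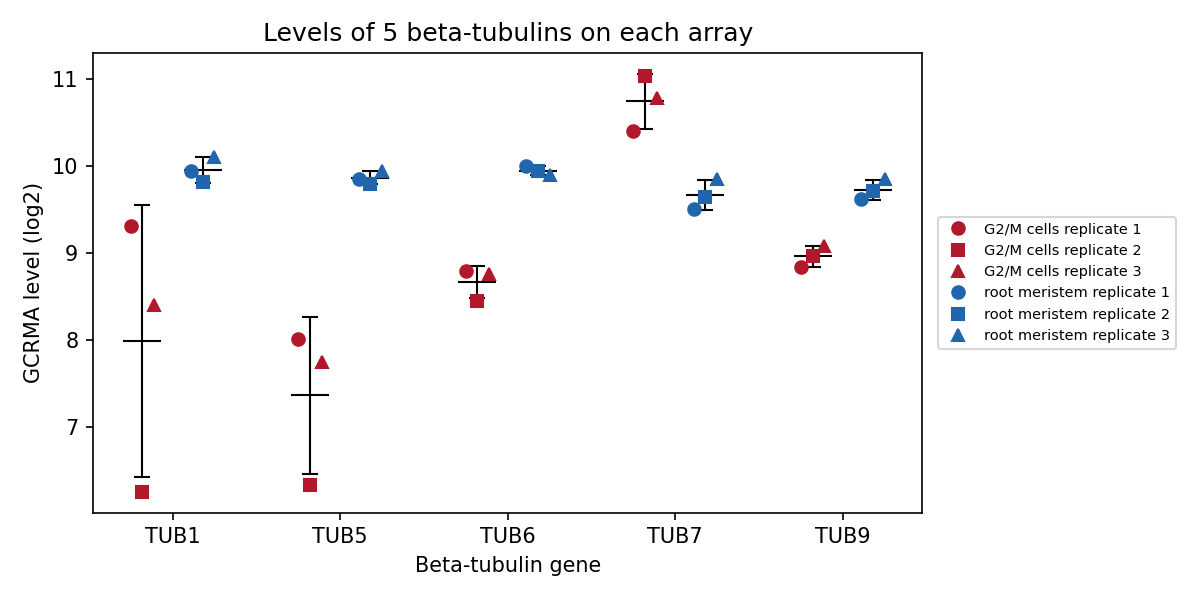
GCRMA level (log2) of the 5 beta-tubulins on each of the 6 arrays, with G2/M cells in red left of root meristem in blue; points are arrays, and black marks are the mean and SD of 3 arrays. TUB7 lies higher in all 3 sorted samples, the other 4 genes lie lower, and the sorted samples of TUB1 and TUB5 are spread far more widely than any other group.

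TUB7 (beta-7 tubulin) had levels of 10.41, 11.04 and 10.79 in G2/M cells replicates 1, 2 and 3, against 9.51, 9.64 and 9.85 in the root meristems. The lowest sorted sample stood 0.56 above the highest meristem. The means were 10.75 ± 0.32 (SD, n = 3) in the G2/M cells and 9.67 ± 0.17 (SD, n = 3) in the meristems, which differ by 1.08 (SE 0.20, 95% interval 0.55 to 1.61, adjusted p = 0.0411). Of the 11503 probe sets above the median level, 6.23% differed upward by as much or more. The call was lost with the replicate number as a block (adjusted p = 0.111), with a trended robust prior (0.0598) and without G2/M cells replicate 2 (0.0801), G2/M cells replicate 3 (0.147) or root meristem replicate 1, 2 or 3 (0.143, 0.154 and 0.102).

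TUB6 (beta-6 tubulin) had the smallest adjusted p of the isotypes. Its levels were 8.79, 8.45 and 8.76 in the G2/M cells, against 10.00, 9.95 and 9.90 in the meristems. All 3 sorted samples lay more than 1 log2 unit below every meristem, with a gap of 1.11 between the groups. The means were 8.67 ± 0.19 (SD, n = 3) in the G2/M cells and 9.95 ± 0.05 (SD, n = 3) in the meristems, which differ by -1.28 (SE 0.11, 95% interval -1.57 to -0.996, adjusted p = 0.00679). The call held without any 1 of the 6 arrays, with adjusted p between 0.00664 and 0.0440, and was lost with the replicate block (0.0726).

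TUB9 (beta-9 tubulin) showed the smallest change and the tightest sorted samples. Its levels were 8.84, 8.97 and 9.08 in the G2/M cells, against 9.62, 9.71 and 9.85 in the meristems. The sorted samples lay together below the meristems, with a gap of 0.54 between the groups. The means were 8.96 ± 0.12 (SD, n = 3) in the G2/M cells and 9.73 ± 0.12 (SD, n = 3) in the meristems, which differ by -0.76 (SE 0.09, 95% interval -1.01 to -0.52, adjusted p = 0.0149). TUB9 was the 1 isotype of the 5 that was called with the replicate block (adjusted p = 0.0273), a setting in which 1.03% of all probe sets were called. It was not called without G2/M cells replicate 2 (0.0528) or without root meristem replicate 2 or 3 (0.0743 and 0.0529).

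TUB5 (beta-5 tubulin) had the largest mean difference of the isotypes and stood at the threshold. Its levels were 8.01, 6.33 and 7.74 in the G2/M cells, against 9.85, 9.80 and 9.95 in the meristems. Every sorted sample was low, replicate 2 by far the lowest, while the meristems lay within 0.15 of each other. The means were 7.36 ± 0.90 (SD, n = 3) in the G2/M cells and 9.87 ± 0.08 (SD, n = 3) in the meristems, which differ by -2.51 (SE 0.50, 95% interval -3.84 to -1.17, adjusted p = 0.04996). Of the probe sets above the median level, 1.74% differed downward by as much or more. The call was lost with the replicate block (adjusted p = 0.147), the trended robust prior (0.0643), quantile normalization (0.0507) and without any 1 array other than G2/M cells replicate 2 (between 0.0512 and 0.166). Without that replicate the difference was -1.99 and the adjusted p was 0.0116.

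TUB1 (beta-1 tubulin) had levels of 9.31, 6.25 and 8.40 in the G2/M cells, against 9.94, 9.82 and 10.11 in the meristems. The sorted samples spanned 3.06 log2 units, from a level 0.51 below the lowest meristem to one far lower. The means were 7.99 ± 1.57 (SD, n = 3) in the G2/M cells and 9.96 ± 0.15 (SD, n = 3) in the meristems, which differ by -1.97 (SE 0.87, 95% interval -4.30 to 0.36, adjusted p = 0.271). Without G2/M cells replicate 2 the difference was -1.10 (adjusted p = 0.178), and without G2/M cells replicate 1 it was -2.63 (adjusted p = 0.126). Of the alternatives tried, array weights alone gave a call (adjusted p = 0.0144), and the estimate of those weights did not converge.

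The isotypes therefore differed in how evenly the sorted samples carried them. Among the 1282 probe sets in the same level range, the median SD over the 3 sorted samples was 0.18. The sorted SD of TUB1 was reached or passed by 1.33% of them and that of TUB5 by 2.81%. For TUB7 this share was 13.7%, for TUB6 47.0% and for TUB9 71.4%. In bulk samples, fewer cells of a type and less RNA per cell cannot be told apart.

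Sorted replicate 2 was the lowest of the sorted samples for TUB1, TUB5 and TUB6 and the highest for TUB7. Set against the meristem mean, TUB1 differed by -0.65, -3.71 and -1.56 in G2/M cells replicates 1, 2 and 3, and TUB5 by -1.86, -3.54 and -2.13. TUB6 differed by -1.16, -1.50 and -1.19, TUB7 by 0.74, 1.37 and 1.12, and TUB9 by -0.89, -0.76 and -0.65. Each isotype thus kept its direction in all 3 sorted samples, and only TUB9 was closest to the meristems in replicate 3.

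Genes known to peak around mitosis were set beside the isotypes. These 6 genes were listed with earlier results of these data known, so their calls are no independent check of the sort. Of all tested probe sets 4.44% were called higher. All 6 that were measured were called higher, the spindle checkpoint protein BUBR1 by 2.73 (SE 0.31, adjusted p = 0.0126), AT4G14330, in the list as a phragmoplast kinesin, by 2.67 (SE 0.18, adjusted p = 0.00466) and the Aurora kinases AUR2 and AUR1 by 2.47 (SE 0.19, adjusted p = 0.00594) and 2.09 (SE 0.20, adjusted p = 0.00851). With replicate number as a block in limma, 0 of these 6 genes passed and all 6 had an unadjusted p under 0.05. The share of all probe sets under that unadjusted threshold was not counted. In the block fit the adjusted p of the 6 lay between 0.0539 and 0.130, among them BUBR1 (0.110), AT4G14330 (0.0654), AUR2 (0.0821) and AUR1 (0.0689). Without G2/M cells replicate 3 or root meristem replicate 1, 2 or 3, 4 of the 6 were called. For each of the 6 the highest sorted sample was replicate 2, as for TUB7. How often replicate 2 was highest over all probe sets was not counted, so this shared order has no background. Sorted replicates 1, 2 and 3 held medians over the 6 genes of 1.92, 2.60 and 2.32 log2 above the mean of the meristems. Of the markers of other root cells, the root hair genes EXPA7 and EXPA18, which code for expansins of hair cells, were not called (differences of 1.78 and 1.497, adjusted p = 0.595 and 0.613). EXPA7 stood at 7.07, 2.42 and 2.69 in G2/M cells replicates 1, 2 and 3, against 2.27 to 2.29 in the meristems, and EXPA18 stood at 6.67, 2.31 and 2.35, against 2.28 in each meristem. Both were thus near the lowest value of the table, 2.27, on every array but sorted replicate 1, the sorted sample in which TUB1, TUB5 and TUB6 were highest. The 2 cortex markers were called lower, by 4.52 (adjusted p = 0.00512) and 0.79 (adjusted p = 0.0191), AT1G09750 at 3.42, 3.11 and 2.54 in the G2/M cells against 7.91, 7.57 and 7.14 in the meristems, and AT1G62500 at 3.41, 3.38 and 3.51 against 4.14, 4.43 and 4.10. AT1G62500 lost its call under the replicate block (adjusted p = 0.129), the trended robust prior (0.0860), a block for the presence of spike-in controls (0.0781) or without G2/M cells replicate 2 or 3 (0.0652 and 0.0709) or root meristem replicate 1 or 3 (0.0706 and 0.0555). The log2 values of the 2 genes of each pair were also added within each array, a sum that is not itself a level. For the root hair pair it ranged from 4.73 to 13.7 in the G2/M cells and from 4.55 to 4.57 in the meristems. For the cortex pair it ranged from 6.05 to 6.83 and from 11.2 to 12.1. The part of these cells in the tubulin differences was not tested; the listed markers of xylem, phloem and root cap were not analysed here.

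**Figure D2:**
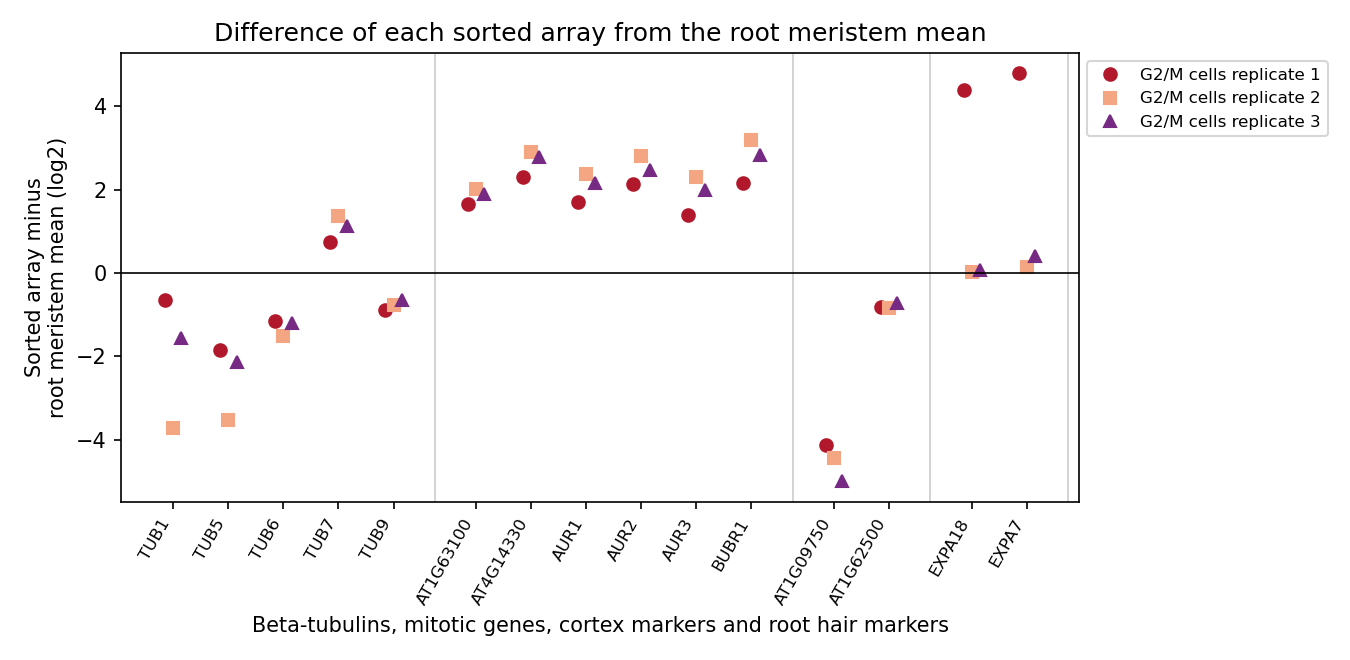
Difference (log2) of each G2/M array from the mean of the 3 root meristem arrays for the beta-tubulins, 6 mitotic genes, 2 cortex markers and 2 root hair markers; each symbol is 1 sorted replicate. TUB7 and the mitotic genes lie above zero with replicate 2 highest, TUB1 and TUB5 are lowest in replicate 2, and the root hair markers stand high in replicate 1 alone.

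Over the series as a whole, 2614 probe sets were called, 1009 higher and 1605 lower, so that 38.6% of the calls were higher. Arrays correlated with r between 0.967 and 0.989 within the G2/M cells and between 0.996 and 0.997 within the meristems, and the root mean square SD above the median level was 0.44 and 0.19 log2. The fit takes a common spread for both groups, whereas TUB1 and TUB5 had the unequal SDs given above. The mean log2 value of the poly-A spike-in controls was 3.09 and 2.98 in sorted replicates 2 and 3, below the median of all values (3.71). It was 5.865 in sorted replicate 1 and 6.33 to 7.34 in the meristems. By this cut-off, and not by any label, sorted replicates 2 and 3 were taken as carrying no spike-ins. With that split as a block, which rests on sorted replicate 1 and was added after the control probe sets had been seen, 13.4% of all probe sets were called, and TUB6 (-1.16, adjusted p = 0.0286) and TUB9 (-0.89, adjusted p = 0.0304) were called lower. TUB5 (-1.86, adjusted p = 0.197), TUB7 (0.74, adjusted p = 0.114) and TUB1 (-0.65, adjusted p = 0.974) were not. Signal near the 3′ end minus that near the 5′ end, a sign of RNA integrity, overlapped between the groups for the GAPDH controls (1.09 to 1.14 in the G2/M cells and 1.00 to 1.16 in the meristems) and the actin controls (4.72 to 5.03 and 4.94 to 5.22). It was larger in the G2/M cells for the ubiquitin controls (1.08 to 1.20, against 0.78 to 0.98 in the meristems). Its part in the tubulin differences was not tested. When the arrays were centred on 5 reference genes, the median difference of probe sets above the median level was 0.17, against 0.02 as deposited, and 84.4% of 13322 calls were higher. Of the reference genes PEX4 differed most in the deposited values, by -0.54 (SE 0.08, adjusted p = 0.0220), and the other 4 differed by -0.15 to 0.07. The shift thus rests in large part on PEX4. With that centring TUB7 differed by 1.23 and TUB5, TUB6, TUB9 and TUB1 by -2.35, -1.13, -0.61 and -1.82, so that no isotype changed direction under any of the 3 scalings tried.

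**Figure D3:**
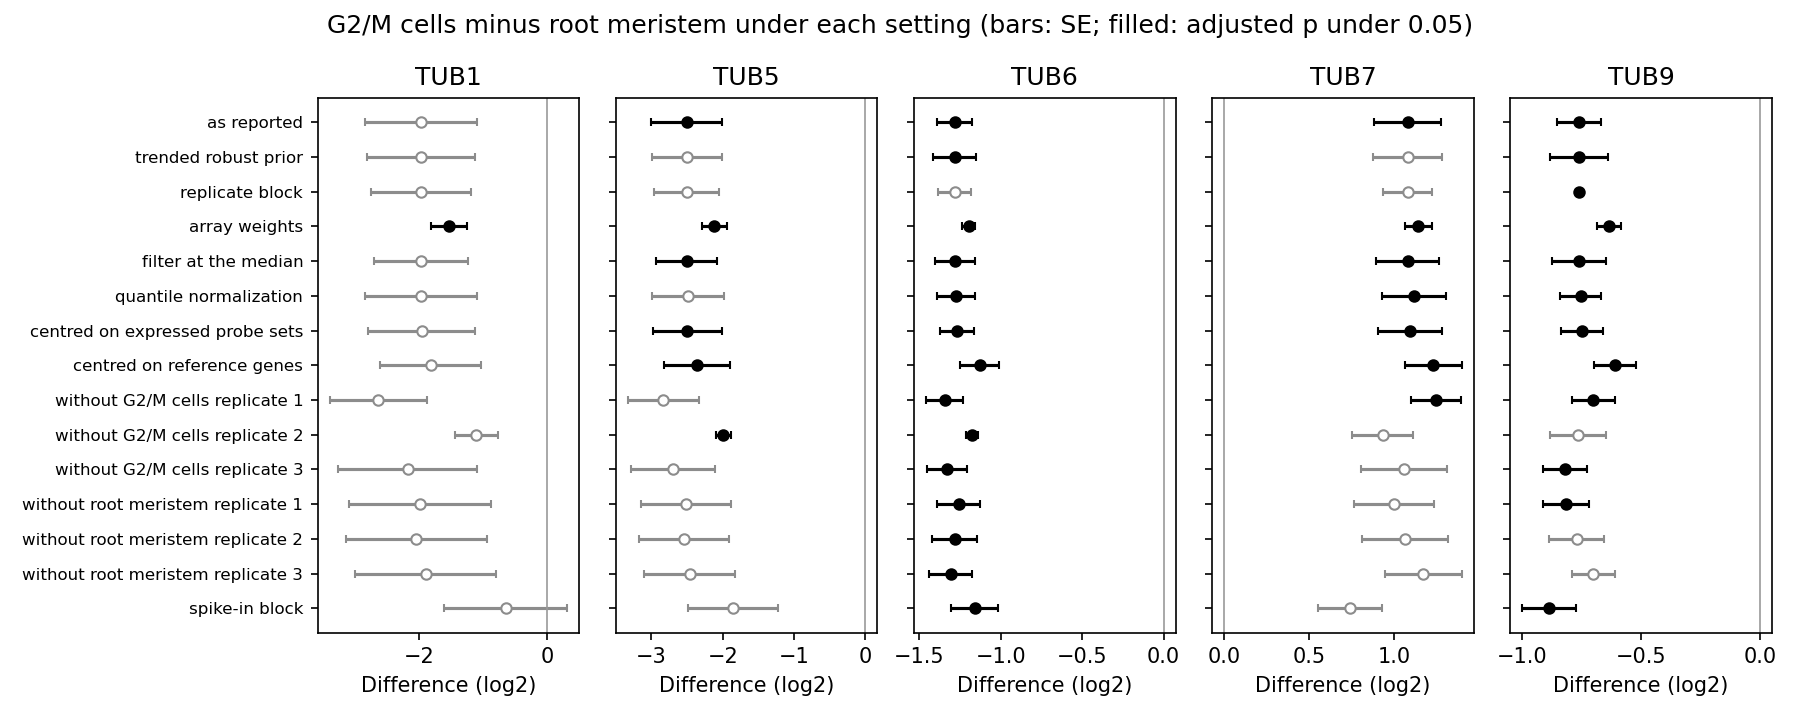
Difference (log2, G2/M cells minus root meristem) of each beta-tubulin as reported and under 14 alternative settings; bars are the SE of the fit, and filled symbols have an adjusted p under 0.05. No difference crosses zero, which was fixed in advance for all settings except quantile normalization and the centrings. The calls of TUB5 and TUB7 come and go with the setting. Those of TUB6 and TUB9 hold in 13 and 11 of the 14.

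The isotypes were also set against each other by the difference of their log2 values within each array, a measure that no rescaling of a whole array can alter. Of 10 pairs, 7 had sorted and meristem values that did not overlap, and so had 62.6% of the 821121 pairs that can be formed from the 1282 probe sets in the same level range, so the count of 7 is near the background. TUB5 minus TUB7 changed by -3.59 and TUB6 minus TUB7 by -2.36. TUB7 minus TUB9 stood between 1.57 and 2.07 in the G2/M cells and between -0.11 and 0.00 in the meristems, a change of 1.84. TUB1 minus TUB7 stood between -4.79 and -1.10 in the G2/M cells and between 0.18 and 0.43 in the meristems. The 4 pairs with TUB7 were all among the 7. This had to be so, since TUB7 lay above every meristem in the sorted samples and the other 4 isotypes lay below. These 4 pairs thus add nothing to the differences of the single genes.

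The other 3 pairs that did not overlap were among TUB5, TUB6 and TUB9. TUB5 minus TUB6 lay between -2.12 and -0.78 in the G2/M cells and between -0.15 and 0.05 in the meristems, and TUB5 minus TUB9 lay between -2.64 and -0.83 and between 0.09 and 0.23. TUB6 minus TUB9 changed by -0.52, with sorted values of -0.52 to -0.05 and meristem values of 0.05 to 0.38. The 3 pairs of TUB1 with TUB5, TUB6 and TUB9 overlapped between the groups, with changes of 0.54, -0.69 and -1.21. For every pair that did not overlap the two-sided exact permutation p was 0.1, the smallest that 3 samples against 3 allow, and the adjusted p over the 10 pairs was 0.143, so this test could not pass 0.05.

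Genes that act with beta-tubulin, and actins of the other filament system, were taken from 6 lists. Of their 89 genes 23 were measured by a probe set naming them alone. In these lists 0 genes were called higher and 1 was called lower. Over all tested probe sets 4.44% were called higher and 7.06% lower, so these counts among 23 genes are near the background. Of the 2 measured alpha-tubulins, the partners of beta-tubulin in the dimer, neither was called by limma, and 0 had an unadjusted p under 0.05. TUA6 had levels of 11.74, 11.69 and 11.75 in the G2/M cells, against 11.81, 11.83 and 12.10 in the meristems, a difference of -0.19 (SE 0.09, 95% interval -0.43 to 0.06, adjusted p = 0.317). The interval of TUA6 thus does not reach the size of the falls of TUB5, TUB6 or TUB9. TUA1, which is known mainly from pollen, lay between 2.58 and 2.64 on all 6 arrays, near the lowest value, and its difference of -0.02 (adjusted p = 0.613) says nothing of a change.

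The lists were written from general knowledge of these loci, and a gene that RefSeq does not name is given by its locus. Of 2 measured genes in the list for microtubule nucleation, AT3G43610, entered there as a component of the gamma-tubulin complex, fell. Its levels were 5.77, 5.99 and 5.92 in the G2/M cells, against 6.34, 6.27 and 6.32 in the meristems, a difference of -0.42 (SE 0.07, adjusted p = 0.0277). The call was lost with the replicate block (adjusted p = 0.151), the trended robust prior (0.206) and without G2/M cells replicate 3 (0.1001) or root meristem replicate 1, 2 or 3 (0.112, 0.0987 and 0.107). AT5G17410, entered as part of the same complex, differed by 0.38 (SE 0.25, adjusted p = 0.485) with overlapping groups. The folding cofactors TFCC and TFCE, which act late in the assembly of the dimer, differed by -0.21 (SE 0.13, adjusted p = 0.443) and 0.01 (SE 0.14, adjusted p = 1.00).

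The 8 measured genes of the list for the CCT chaperonin, which folds newly made tubulin and actin, varied little. All 8 differences were positive and lay between 0.04 and 0.33, with a median of 0.11, beside 0.02 for all probe sets whose level exceeded the median. None was called by limma, and 1 had an unadjusted p under 0.05; centring on reference genes called 6 of them, array weights 4 and leaving out G2/M cells replicate 1 called 2, and under the spike-in block the differences lay between -0.13 and 0.09. AT5G16070 differed by 0.33 (SE 0.12, adjusted p = 0.196; 0.0206 without G2/M cells replicate 1) and AT5G26360 by 0.12 (SE 0.05, adjusted p = 0.291). Of 7 microtubule-associated proteins none was called by limma and 4 had an unadjusted p under 0.05. The share of all probe sets under that unadjusted threshold was not counted, so this count and those of the other lists have no background. The differences of these 7 genes lay between -0.43 and 1.06, the upper end being that of WDL3, named here after its value was seen. It stood at 4.32, 2.27 and 3.39 in the G2/M cells, against the lowest value of the table in each meristem. The genes entered as regulatory subunits of the severing enzyme katanin went opposite ways without being called: AT5G23430 differed by 0.27 (SE 0.05, adjusted p = 0.0516; 0.0414 when centred on expressed probe sets and 0.0317 without G2/M cells replicate 2) and AT5G08390 by -0.31 (SE 0.08, adjusted p = 0.0965). Among the actins, subunits of the other filament system, ACT11 differed by -0.37 (SE 0.17, adjusted p = 0.288), and ACT12 lay between 2.29 and 2.30 on all arrays.

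**Figure D4:**
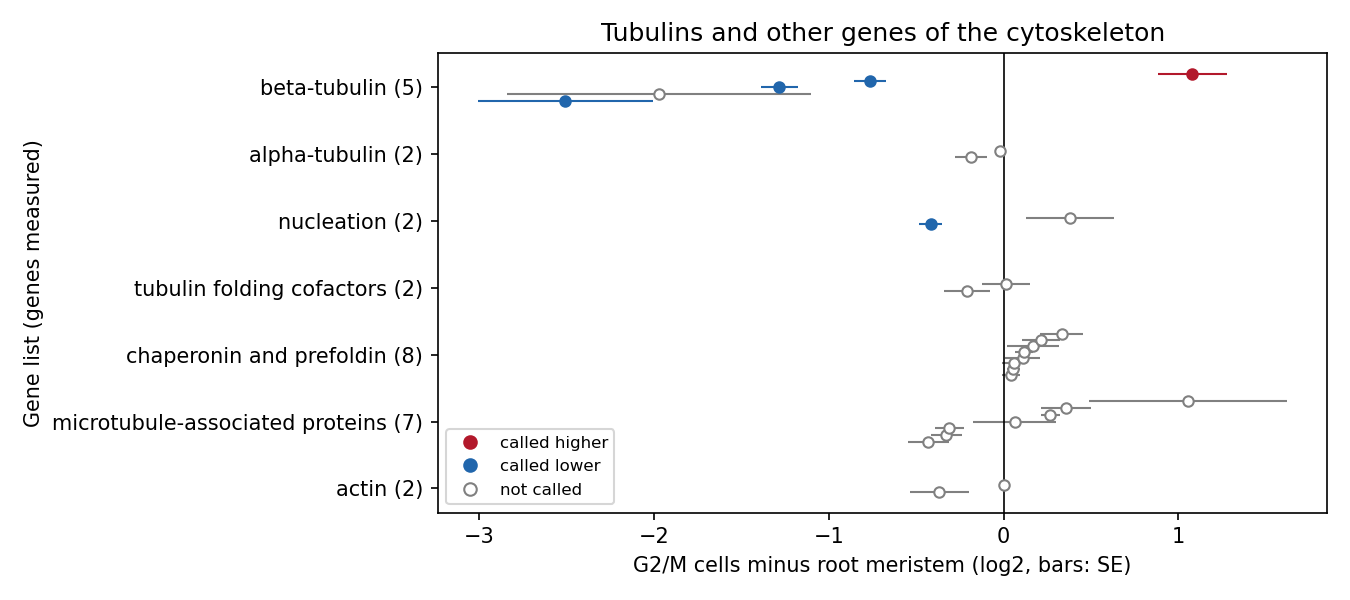
Difference (log2, G2/M cells minus root meristem, with SE) of each measured gene in the beta-tubulin list and in 6 lists of related cytoskeletal genes; red and blue filled points were called higher and lower, and open points were not called. The beta-tubulins span -2.51 to 1.08, and AT3G43610 is the 1 called gene outside them.

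The genes whose profiles over the 6 arrays were most like each isotype were found by the root mean square distance between profiles, each centred on its own mean, among 874 genes with a symbol and a mean above the median level. This is a description of 6 arrays in 2 groups, and such a list can change when 1 array is left out. The genes were chosen by this likeness, so a shared direction or shared order of the arrays is given by the choice, and their differences are given with no test. The 3 nearest to TUB7 were WYR, an inner centromere protein, at a distance of 0.11 log2, the heat shock protein Hsp70-2 at 0.12 and Haspin, a kinase of histone H3, at 0.12. WYR stood at 5.92, 6.56 and 6.40 in the G2/M cells, against 5.26, 5.43 and 5.53 in the meristems. Haspin stood at 5.90, 6.43 and 6.10, against 4.85, 5.08 and 4.95. The differences were 0.89 for WYR, 1.25 for Hsp70-2 and 1.18 for Haspin, beside 1.08 for TUB7.

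The nearest to TUB6 were PDC2, a pyruvate decarboxylase, at 0.13, HTB11, a histone H2B, at 0.13 and TET7, a tetraspanin, at 0.14. Their differences were -1.28, -1.503 and -1.04. The nearest to TUB9 were GMII, a Golgi mannosidase, at 0.07, ACLB-1, a subunit of ATP-citrate lyase, at 0.07 and SCPL49, a serine carboxypeptidase-like protein, at 0.10, with differences of -0.74, -0.72 and -0.74. HTB11 stood at 8.88, 8.68 and 8.91 in the G2/M cells, against 10.29, 10.45 and 10.24 in the meristems.

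The nearest to TUB1 were GH3.17, an enzyme that conjugates auxin, at 0.22, the carboxypeptidase-like scpl40 at 0.27 and BIM1, a transcription factor of brassinosteroid signalling, at 0.28. GH3.17 stood at 5.52, 2.99 and 5.08 in the G2/M cells, against 6.44, 6.74 and 6.63 in the meristems. The nearest to TUB5 were HAT2, a homeodomain transcription factor, at 0.23, the glutathione transferase GSTU27 at 0.28 and the transcription factor BZIP61 at 0.30. HAT2 stood at 4.20, 2.84 and 4.14 in the G2/M cells, against 6.68, 6.36 and 6.81 in the meristems, a difference of -2.89. The distances of TUB1 and TUB5 to their nearest profiles, 0.22 to 0.30, were larger than those of the other 3 isotypes, 0.07 to 0.14. These distances are in log2 units and not scaled by spread, and TUB1 and TUB5 had the most widely spread sorted samples. The contrast thus does not show that they have fewer close profiles.

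**Figure D5:**
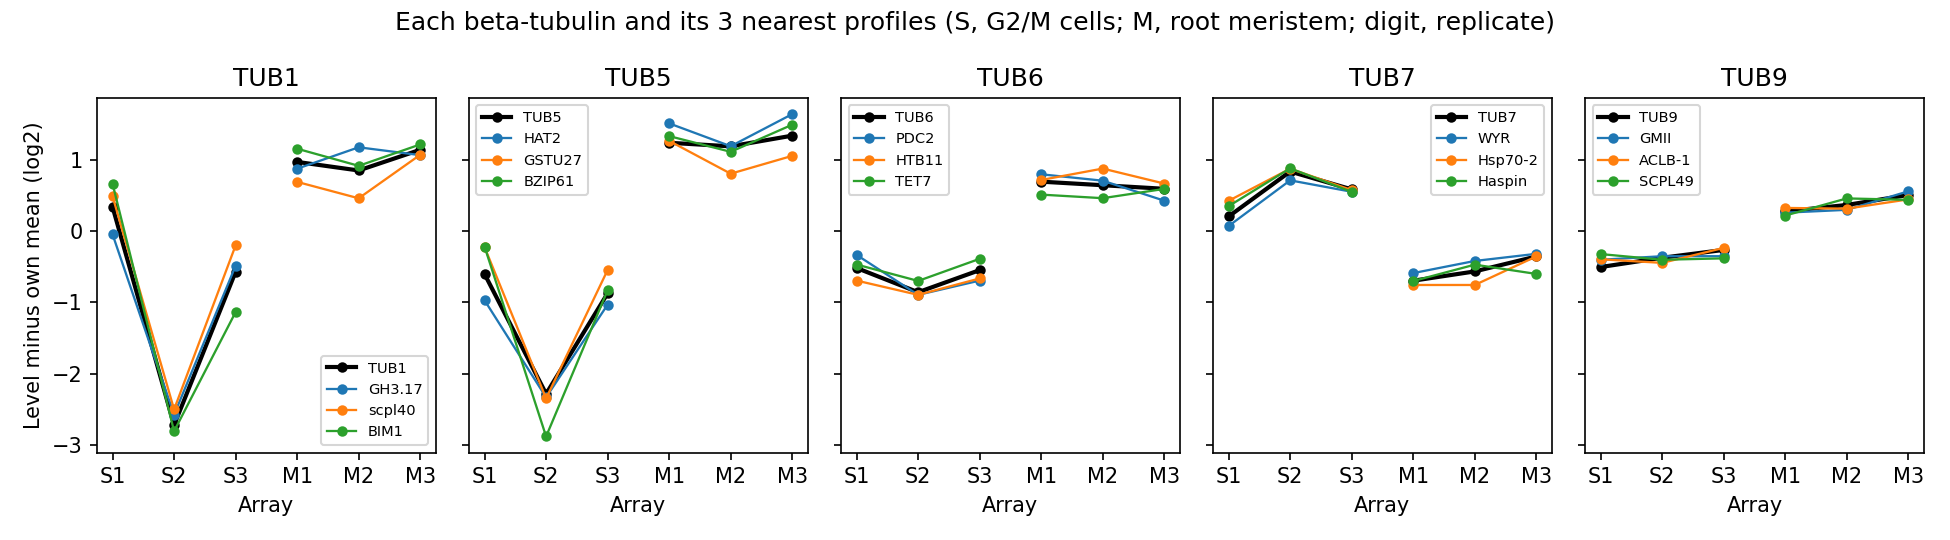
Level minus own mean (log2) on the 3 G2/M arrays (S) and the 3 root meristem arrays (M) for each beta-tubulin in black and its 3 nearest profiles in colour. The coloured lines follow the black ones because they were chosen for it. In log2 units not scaled by spread, they lie closest for TUB9, at 0.07 to 0.10, and farthest for TUB5, at 0.23 to 0.30.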

How the data were processed

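The deposited table holds 1 log2 value per probe set and array for 6 Affymetrix ATH1 arrays. The authors used GCRMA, per the submitters' processing notes, to correct background, normalize across arrays and summarise probes. Its version is not given in the sources used here. Deposited log2 values ran from 2.27 to 14.2. After removal of 64 control probe sets 22746 were tested. A single gene was named for 13513 of these in the platform annotation and several for 503; 13436 were matched by gene identifier to RefSeq (TAIR10.1), used for names only. Cross-hybridisation between isotypes was not tested. The labels call the samples biological replicates. The precision is limited by 3 arrays per group.

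The groups were compared with limma 3.58.1 in R 4.3.3 (lmFit, eBayes), which was tested on simulated data. The simulation gave each probe set independent noise with the same SD in both groups. It therefore does not cover the unequal spread of these samples. Pairs of isotypes were compared by an exact permutation test (scipy 1.17.1). The members and lists were chosen with earlier results of these data known. The named genes are every measured isotype, all genes of lists with 4 or fewer measured, up to 4 called genes by size of change from each longer list (without calls, the 2 of lowest p), and the 3 nearest profiles of each isotype. Alternatives were a trended robust prior, a replicate block, array weights, a filter at the median value (3.71), quantile normalization, centring on expressed probe sets or on reference genes, leaving out each array, and a block for the spike-ins, added after seeing the data. Same-numbered samples of the groups deviated together over the 11503 probe sets above the median (r = 0.122, 0.249 and 0.106 for replicates 1, 2 and 3), less so over all probe sets (0.0959, 0.195 and 0.0742). The numbers were taken as pairing the samples, a pairing that the main fit leaves out. Where the block changes a call of an isotype or of a listed gene given in the text, the blocked value is printed. No blocked value is given for the reference gene PEX4.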

Additional observations from a re-analysis of the deposited data

Results flagged for a closer look

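The control probe set for 25S ribosomal RNA, which entered no test, stood between 12.69 and 13.10 log2 in the G2/M cells and between 11.29 and 11.40 in the root meristems. The mean difference of 1.54 log2 was looked at because the signal lies outside the tested probe sets and above every meristem sample. Its relation to the beta-tubulin differences was not tested.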

How the results depend on the processing

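All 5 isotypes kept their direction under all 14 alternatives. Outside quantile normalization and the centrings this had to be so and is no check. The groups of each isotype do not overlap, so leaving out or weighting arrays cannot turn a sign, nor can the spike-in block. The trended robust prior, the filter and the replicate block leave each difference unchanged. The paired analysis with the replicate block left 235 calls over all probe sets and 1 isotype (TUB9), with TUB5 at -2.51, TUB6 at -1.28 and TUB7 at 1.08 not called and 0 genes of the other lists called. With the trended robust prior 1249 probe sets, 2 isotypes and 0 other genes were called, and TUB5 (-2.51) and TUB7 (1.08) were not. Array weights, whose estimate did not converge, called 9114 probe sets, 13 other genes and TUB1 (-1.53). Quantile normalization lost TUB5 (-2.49) and turned ACT12 to -0.0022. The filter at the median and centring on expressed probe sets each called 2 other genes. Centring on reference genes called 13322 probe sets and 10 other genes and turned TUA1 to 0.13, which is the shift itself. The spike-in block called 2 isotypes and 3 other genes, lost TUB5 (-1.86) and TUB7 (0.74), and turned AT5G17410 to -0.10 and TFCE to -0.21. Leaving out 1 array gave 959 to 3383 calls, 1 to 3 isotypes and 0 to 4 other genes, with differences of -2.83 to -1.99 for TUB5, 0.93 to 1.25 for TUB7, -0.82 to -0.70 for TUB9 and -0.075 to 0.123 for TFCE, and 7 to 9 non-overlapping pairs. Between 0 and 3 of the nearest profiles of TUB1 and TUB6 were kept, and 1 to 2 of those of TUB7. The cause of the lost calls was not tested. No isotype had another probe set to try. TUA1, ACT12 and, in the meristems, WDL3 lie near the lowest signal, where a change cannot be measured.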
